A study of Mus musculus with 3 samples.

Results

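Neutrophils of skin wounds taken 5 days after injury were described in 3 single-cell RNA libraries. The cells were chosen by their own UMI counts (unique molecular identifiers, 1 for each captured probe molecule), and a cell was counted as a neutrophil when its barcode had at least 250 detected genes and at most 10% mitochondrial UMIs, at least 2 UMIs in all of Csf3r, Cxcr2, Retnlg, Trem1 and Hdc, at least 5 UMIs in all of S100a8, S100a9, Il1b and Cxcl2, and at most 2 UMIs in all of the macrophage genes Mrc1, Cd163, Mmp12, Gpnmb and C1qa. The rule found 198 cells among the 26953 that passed the filter on genes and mitochondrial UMIs. They were 103 of 9612 cells in the library of wounds given gel with apoptotic neutrophils, 62 of 11302 in that of wounds given gel alone, and 33 of 6039 in that of untreated wounds.

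Female C57BL/6J mice at postnatal day 50 were given a full-thickness wound of 5 mm on the back, held open by a sutured splint. The wound was given 20 µL of gelatin methacryloyl (GelMA), a light-cured hydrogel, loaded with apoptotic neutrophils (the AN-GelMA group), or 20 µL of GelMA alone (the GelMA group), each crosslinked in place with ultraviolet light for 1 min, or no gel (the untreated group, titled sham in the labels). Tissue with a margin of 2 mm was taken at 5 days, so each library holds wound bed and bordering healthy skin, and was minced, fixed for 24 h and dissociated with Liberase TH at 5 mg/mL for 2 h at 37 °C. Expression was read with a probe kit for mouse (10x GEM-X Flex, version 2), in which pairs of probes bind RNA inside fixed cells. Mice were housed individually after surgery, and the labels give neither the number of mice behind a library nor the source of the loaded neutrophils or how they were made apoptotic. Neutrophils that came with the gel are not marked in these tables and cannot be told apart from those of the host. Labels put the AN-GelMA library in its group; its file names hold the word heat, and what that stands for was not given in the sources used here. With 1 library per group there is no replicate, so no difference below was tested, and all intervals are 95% and cover counting error only.

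Neutrophils are the first leukocytes to leave the blood for a wound. They are made in the bone marrow under granulocyte colony-stimulating factor, whose receptor is Csf3r, store ready-made proteins in granules, and follow chemokines through Cxcr2. At the injured site they take up debris and microbes, release interleukin 1 and chemokines that call further cells, and then die by apoptosis and are engulfed by macrophages, a step linked to the end of inflammation. Because they carry little RNA and many RNA-degrading and proteolytic enzymes, droplet assays tend to count fewer of them than tissue sections show.

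The label was checked against neutrophil genes that the rule did not use. Of 20 such identity markers, 19 had a probe, and all 19 were detected in the AN-GelMA and GelMA neutrophils and 18 of 19 in the untreated ones, where the collagenase gene Mmp8 was at 0. Their summed level was 12572, 15036 and 14077 CPM (UMIs of a gene per 1000000 UMIs of the summed cells) in the neutrophils of the AN-GelMA, GelMA and untreated libraries, against 709, 673 and 662 CPM in all other cells of the same libraries. The markers were thus high in the chosen cells of every library. Cells that met the rule through Trem1 or Hdc, with fewer than 2 UMIs of Csf3r, Cxcr2 and Retnlg, numbered 31, 32 and 15. Their identity markers summed to 12390, 15017 and 13433 CPM, and those of the other 72, 30 and 18 to 12640, 15049 and 14446 CPM, in the neutrophils of the AN-GelMA, GelMA and untreated libraries. Both kinds of cell were therefore at like levels of these markers.

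Markers of mast cells, basophils and eosinophils, which express some of the rule's genes, were at or near 0, while those of macrophages, monocytes and dendritic cells were not. Of 10 mast cell and basophil genes, Cpa3, Mcpt4, Tpsb2, Tpsab1, Cma1 and Fcer1a had no UMI in any library, and the whole list held 1, 4 and 4 UMIs in the AN-GelMA, GelMA and untreated neutrophils. Hdc, which makes histamine, is a gene of those cells too. Of 6 eosinophil genes with a probe, Siglecf and Epx among them, 2 UMIs were found in each library, and Prg2 and Il5ra were at 0 in all 3. The 12 macrophage markers, of which Cd163 and Mrc1 were held low by the rule, summed to 1127, 707 and 947 CPM in the AN-GelMA, GelMA and untreated neutrophils, and to 6802, 6592 and 5818 CPM in the macrophage-like cells and 1343, 874 and 1117 CPM in all other cells of the same libraries. Macrophage-like cells were those with at least 3 UMIs of 8 macrophage genes. Adgre1, which encodes the macrophage antigen F4/80, was at 0 in the GelMA and untreated neutrophils. The 7 monocyte markers with a probe summed to 653, 228 and 308 CPM in the AN-GelMA, GelMA and untreated neutrophils and to 862, 178 and 672 CPM in all other cells. The 9 dendritic cell markers summed to 625, 239.6 and 352 CPM in the same neutrophils and to 490, 222 and 476 CPM in all other cells. The RNA of these myeloid cell types was thus present in the neutrophils, and its part in the results was not tested.

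RNA of skin cells was present in the neutrophils, and in different mixtures. The 10 keratinocyte markers summed to 4734, 6518 and 2247 CPM in the AN-GelMA, GelMA and untreated neutrophils, and to 12072, 10669 and 10242 CPM in all other cells. The 10 hair markers stood at 75.7, 5811 and 110.2 CPM in the same neutrophils, and at 75.4, 9801 and 639 CPM in all other cells. Hair RNA was thus high in the GelMA library in neutrophils and other cells alike. The 7 fibroblast markers were at 2102, 587 and 4714 CPM in AN-GelMA, GelMA and untreated neutrophils, and at 6063, 1313 and 5285 CPM in other cells. The 6 skeletal muscle markers were at 75.7, 1641 and 1740.4 CPM in AN-GelMA, GelMA and untreated neutrophils, and at 620, 2577 and 956 CPM in other cells. Whether this RNA was free RNA or came with cells caught together was not tested, and the 25, 23 and 12 neutrophils with 5 or more UMIs of these 4 lists were left out in an alternative chosen after seeing the data.

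The neutrophils held 105630 UMIs in the AN-GelMA library, 83466 in the GelMA library and 45393 in the untreated library, so 1 UMI is worth 9.47, 12.0 and 22 CPM. Their median was 738, 796 and 816 UMIs per cell, against 990.0, 920.0 and 1086 in macrophage-like cells and 1134, 1488 and 1124 in all cells. The neutrophils are thus shallow, and the shallowest had 499, 500 and 496 UMIs, close to the lowest barcode of each library at 487, 496 and 487. Whether neutrophils below that level are missing from the tables was not tested. The 3 deepest neutrophils held 8.90%, 25% and 30.2% of these UMIs in AN-GelMA, GelMA and untreated, so single cells weigh most in the untreated library. The libraries share 135 cell barcodes between AN-GelMA and GelMA, 94 between AN-GelMA and untreated, and 107 between GelMA and untreated.

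Neutrophils were scarce in every library and took the largest share of all cells in AN-GelMA. The share was 1.07% (0.875 to 1.3, exact binomial interval) in AN-GelMA, 0.549% (0.421 to 0.703) in GelMA and 0.546% (0.376 to 0.767) in the untreated library. The AN-GelMA interval lay above the other two, which overlapped. Counting only cells with 2 or more UMIs of 10 general leukocyte genes changed the order. Neutrophils were then 79 of 1798 immune cells in AN-GelMA, or 4.39% (3.49 to 5.45), 50 of 703 in GelMA, or 7.11% (5.32 to 9.27), and 30 of 946 in the untreated library, or 3.17% (2.15 to 4.5). On this scale GelMA was highest, its interval overlapped that of AN-GelMA and lay above the untreated one, and those of AN-GelMA and the untreated library overlapped. For each 100 macrophage-like cells there were 8.86 neutrophils in AN-GelMA, 15.7 in GelMA and 7.07 in the untreated library. AN-GelMA held 1163 macrophage-like cells, GelMA 395 and the untreated library 467. Whether the make-up of the other cells set the order of these shares was not tested.

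The share also moved with the rule. Requiring 3 UMIs of the receptor set gave 0.801%, 0.425% and 0.447% in AN-GelMA, GelMA and untreated. Leaving Hdc and Trem1 out of that set gave 0.749%, 0.265% and 0.298% in the same libraries. Thinning every cell to 500 UMIs before the rule gave 0.718% in AN-GelMA, 0.434% in GelMA and 0.282% in untreated. AN-GelMA was highest under each of these 3 settings, but its interval lay above both others only without Hdc and Trem1. With 3 UMIs it ran from 0.633 to 1.0% and overlapped the untreated one, 0.295 to 0.650%, and with thinned cells it ran from 0.559 to 0.908% and overlapped that of GelMA, 0.321 to 0.573%. Near the limits of the rule, 26 AN-GelMA, 14 GelMA and 6 untreated neutrophils had exactly 2 UMIs of the receptor set, while 37, 21 and 15 cells just outside it had 1. Exactly 5 UMIs of the product set were found in 3, 1 and 0 neutrophils, and 4 in 3, 1 and 1 cells just outside. Of the excluded macrophage genes, 3, 4 and 5 neutrophils held 2 UMIs, and 2, 3 and 0 cells just outside held 3.

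**Figure D1:**
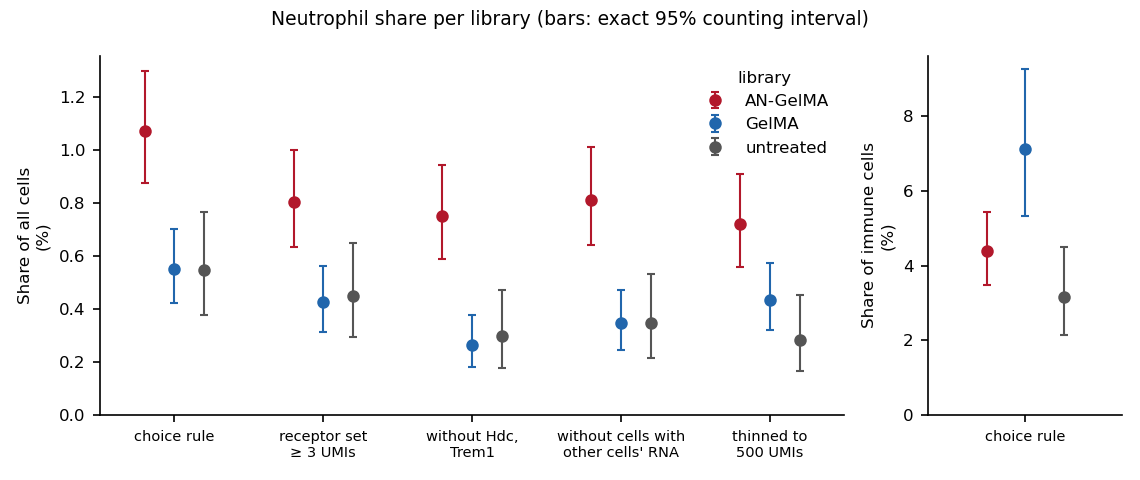
Share of neutrophils in percent per library, with exact 95% counting intervals, among all cells under 5 settings of the rule (left) and among immune cells (right). AN-GelMA stood highest among all cells, at 1.07% with the rule as given, and GelMA highest among immune cells, at 7.11%.

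The features that stood furthest above all other cells included granule proteins, receptors, chemokines and inflammatory enzymes. Since these cells were chosen by their own RNA, this is a description. Of 3002 features with at least 20 UMIs in these neutrophils, 545 (18.2%) exceeded all other cells by 1.5-fold or more in 3 of 3 libraries, and 473 (15.8%) exceeded macrophage-like cells in the same way. The 20 with the highest lowest-of-3 ratio were led by Cstdc4, a stefin-type protease inhibitor gene, at 483 CPM in AN-GelMA, 1534 CPM in GelMA and 551 CPM in untreated neutrophils, against 1.57, 2.02 and 2.71 CPM in other cells. Lrg1, a glycoprotein of neutrophil granules, was at 426 CPM in AN-GelMA, 276 CPM in GelMA and 220.3 CPM in untreated neutrophils, against 1.43, 1.55 and 1.81 CPM in other cells. Both were low outside the neutrophils. The others included Srgn, the core protein of the proteoglycan that packs granule contents, Slpi, an inhibitor of neutrophil elastase, G0s2, an inhibitor of triglyceride lipase, Acod1, the enzyme that makes itaconate, the receptors Trem3, Treml4 and Clec4e, the inflammasome sensor Nlrp3 and the glucose transporter gene Slc2a3.

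**Figure D2:**
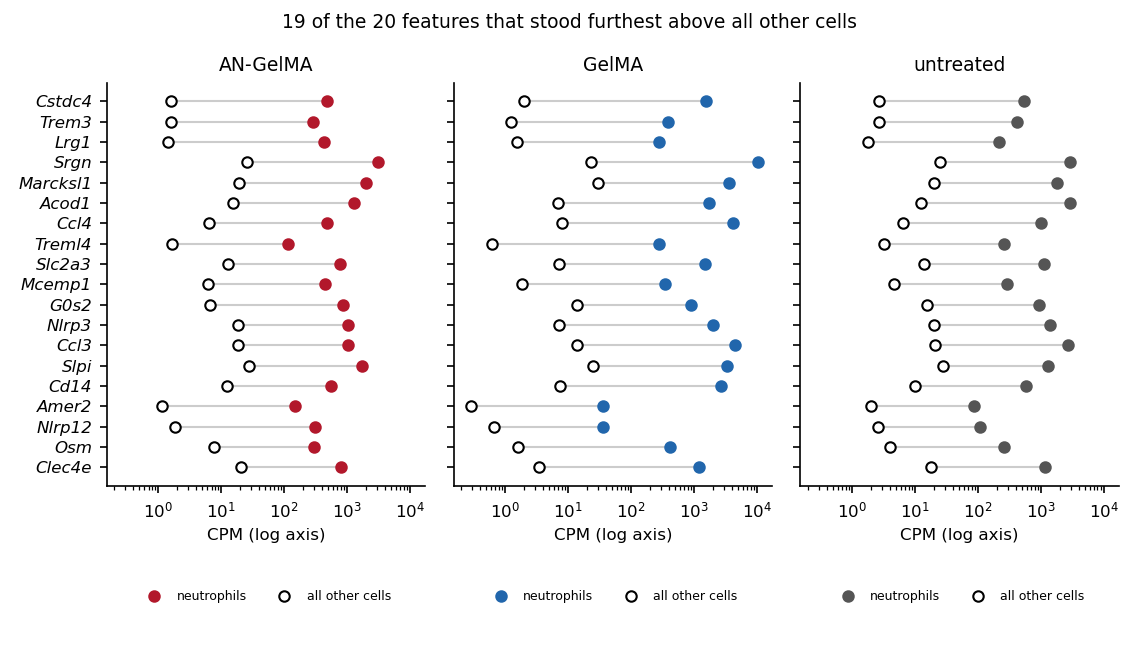
Level in CPM (log axis) of 19 of the 20 features that stood furthest above all other cells, in neutrophils and in all other cells of each library. Cstdc4 stood at 483, 1534 and 551 CPM in the neutrophils of the AN-GelMA, GelMA and untreated libraries and at 1.57, 2.02 and 2.71 CPM in other cells.

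The genes that chose the cells are given only as a description, since the rule fixed that they are present. Csf3r was at 3436 CPM in AN-GelMA, 946 CPM in GelMA and 2049 CPM in untreated neutrophils, and Cxcr2 at 359.8 CPM in AN-GelMA, 156 CPM in GelMA and 286 CPM in untreated neutrophils. By CPM both were highest in AN-GelMA and lowest in GelMA, but Cxcr2 rested on 38, 13 and 13 UMIs in AN-GelMA, GelMA and untreated. The choice of cells used both genes. Fewer than 2 UMIs of Csf3r, Cxcr2 and Retnlg were held by 31 of 103, 32 of 62 and 15 of 33 neutrophils. Whether this set their order was not tested. S100a8 was at 3294 CPM in AN-GelMA, 7619.9 CPM in GelMA and 2159 CPM in untreated neutrophils, and its partner S100a9 at 5548 CPM in AN-GelMA, 10915 CPM in GelMA and 6124 CPM in untreated neutrophils. These alarmins were highest in GelMA. Il1b was at 10755 CPM in AN-GelMA, 10543 CPM in GelMA and 10332 CPM in untreated neutrophils, a like level in all 3, while Cxcl2 was at 9202 CPM in AN-GelMA, 19553 CPM in GelMA and 18395 CPM in untreated neutrophils. Trem1, which amplifies inflammatory signals, was at 359.8 CPM in AN-GelMA, 431 CPM in GelMA and 264 CPM in untreated neutrophils, and Hdc at 2300.5 CPM in AN-GelMA, 2684 CPM in GelMA and 2291 CPM in untreated neutrophils, near the same level in each. Retnlg, a resistin-like gene of mouse neutrophils, rested on 21 UMIs in AN-GelMA, 43 in GelMA and 1 in untreated neutrophils.

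The rest of the description covers genes outside the rule, as log2 ratios of CPM between 2 libraries. AN-GelMA over GelMA addresses what the apoptotic cells add to the gel, AN-GelMA over untreated the whole treatment, and GelMA over untreated the gel alone. The 3 comparisons share libraries, so no value in one stands as support for another. A feature was compared where the 2 libraries together held at least 20 UMIs, and counted as higher or lower past 1.5-fold. This left few members of some lists and favours those that are high in at least 1 library, so the counts describe the members that passed, not whole pathways. Of 2359 features compared in AN-GelMA over GelMA, 27.8% were higher and 19.8% lower. Of 1785 in AN-GelMA over untreated, 28.1% were higher and 18.0% lower, and of 1373 in GelMA over untreated, 26.4% were higher and 24.2% lower. The median log2 ratio of all features was 0.075, 0.10 and 0.039. Past 1.5-fold in either direction were 47.6%, 46.2% and 50.6%, so a count of list members says little unless it stands apart from these shares.

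In the receptors for chemoattractants and growth factors, neutrophils of the AN-GelMA library had more RNA of several cytokine receptor chains than those of the GelMA library. Of 17 listed genes, 11 were compared, and 6 were higher and 2 lower, with a median of 0.62, beside 27.8% higher and 19.8% lower among all features. Csf2rb, the chain shared by the receptors for GM-CSF, interleukin 3 and interleukin 5, was at 1136 CPM (942 to 1358) in the AN-GelMA library, 264 CPM (165 to 399) in the GelMA library and 683 CPM (464 to 969) in the untreated library. The GelMA interval lay below the other two, with log2 ratios of 2.11 (1.44 to 2.83) for AN-GelMA over GelMA, 0.73 (0.15 to 1.35) for AN-GelMA over untreated and -1.37 (-2.23 to -0.54) for GelMA over untreated. Csf2ra, the chain that binds GM-CSF itself, was at 1420.1 CPM in AN-GelMA, 599 CPM in GelMA and 991 CPM in untreated neutrophils, and Il17ra at 435 CPM in AN-GelMA, 132 CPM in GelMA and 308 CPM in untreated neutrophils. Both were lowest in GelMA. Il4ra was at 435 CPM in AN-GelMA, 179.7 CPM in GelMA and 375 CPM in untreated neutrophils, but 1 cell held 64.7% of its untreated UMIs. The 2 members that were lower in AN-GelMA than in GelMA were Cxcr4, which holds neutrophils in the marrow, at 85.2 CPM in AN-GelMA, 264 CPM in GelMA and 286 CPM in untreated neutrophils, and C5ar1, the receptor for complement C5a, at 246 CPM in AN-GelMA, 491 CPM in GelMA and 330.4 CPM in untreated neutrophils. Their log2 ratios were -1.63 (-2.93 to -0.45) and -1.0 (-1.76 to -0.25).

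Against the untreated library, the receptor list was closer to the background. In AN-GelMA over untreated, 3 of 10 were higher and 1 lower, with a median of 0.40, beside 28.1% and 18.0% of all features. The lower one was Cxcr4, at a log2 ratio of -1.75 (-3.15 to -0.41). In GelMA over untreated, 1 of 9 was higher and 4 were lower, with a median of -0.52, beside 26.4% and 24.2%. Without the cells carrying RNA of other cells that last median was 0.13. The share of cells with a UMI, after thinning each cell to 500 UMIs, gave the same order for Csf2rb: 36.3% (27.0 to 46.4) of AN-GelMA, 11.3% (4.66 to 21.9) of GelMA and 18.8% (7.21 to 36.4) of untreated neutrophils. In keratinocytes, which should lack it, the thinned share was 0.577% in AN-GelMA, 0.247% in GelMA and 0.468% in untreated. Among neutrophils, the untreated interval of the Csf2rb share overlapped both others.

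Adhesion molecules hold neutrophils to vessel walls and matrix. Itgam, the alpha chain of the integrin Mac-1, was at 862 CPM in AN-GelMA, 659 CPM in GelMA and 727 CPM in untreated neutrophils, and the hyaluronan receptor gene Cd44 at 1221 CPM in AN-GelMA, 1498 CPM in GelMA and 1299.8 CPM in untreated neutrophils. Neither was past 1.5-fold in any comparison. Cd9, a tetraspanin gene, was at 530.1 CPM in AN-GelMA, 1258 CPM in GelMA and 859 CPM in untreated neutrophils, with a log2 ratio of -1.25 (-1.74 to -0.77) for AN-GelMA over GelMA. Of the 7 adhesion genes compared in AN-GelMA over GelMA, 3 were higher and 1 lower, beside 27.8% and 19.8% of all features. In AN-GelMA over untreated 1 of 7 was higher and 1 lower, beside 28.1% and 18.0%. In GelMA over untreated 0 of 5 were higher and 1 lower, beside 26.4% and 24.2%.

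Granule genes were listed by the stage at which they are made. Primary granule proteins such as myeloperoxidase and elastase are transcribed in marrow precursors, and their 6 genes held 2, 0 and 1 UMIs in all in the AN-GelMA, GelMA and untreated neutrophils. The 12 cell cycle genes held 25, 28 and 34 UMIs in the same order, or 237, 335 and 749 CPM. In the untreated library 1 cell held 55.9% of these cell cycle UMIs. The chosen cells thus carried next to no primary granule RNA. Genes of later granules were present at 3219 (2886 to 3579.8) CPM in AN-GelMA, 2540.0 (2209.5 to 2906) CPM in GelMA and 1454 (1124 to 1849.8) CPM in the untreated neutrophils, the lowest of the 3. Of 16 listed genes, 5 were compared, and 5 were higher in AN-GelMA and 4 in GelMA than in the untreated library, beside 28.1% and 26.4% of all features. Their medians of 1.10 and 1.06 were 0.19 and 0.12 when members under 20 UMIs were counted too. Hp, the haptoglobin gene, had 49 UMIs in AN-GelMA, 24 in GelMA and 2 in untreated neutrophils, or 464 CPM in AN-GelMA, 288 CPM in GelMA and 44.1 CPM in untreated neutrophils, with log2 ratios of 3.40 (1.47 to 6.48) for AN-GelMA over untreated and 2.71 (0.70 to 5.83) for GelMA over untreated. Lcn2, the gene of the iron-trapping protein lipocalin 2, had 20 UMIs in AN-GelMA, 37 in GelMA and 3 in untreated neutrophils, and Mmp9, a gelatinase gene, 28 UMIs in AN-GelMA, 23 in GelMA and 6 in untreated neutrophils. The untreated counts of Hp, Lcn2 and Mmp9 were too low to place their levels closely. Adam8, a membrane protease gene, was at 1751 CPM in AN-GelMA, 1078 CPM in GelMA and 969 CPM in untreated neutrophils. It thus gave most of the later granule sum in AN-GelMA and untreated neutrophils. Its log2 ratio was 0.70 (0.33 to 1.08) for AN-GelMA over GelMA.

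The identity markers themselves varied around the background. In AN-GelMA over GelMA 3 of 15 were higher and 4 lower, with a median of -0.06, beside 27.8% and 19.8% of all features. The 2 comparisons with the untreated library gave medians of -0.01 and 0.09. Clec4d, a C-type lectin receptor gene, was at 1695 CPM in AN-GelMA, 1629 CPM in GelMA and 1476 CPM in untreated neutrophils, and G0s2 at 871 CPM in AN-GelMA, 887 CPM in GelMA and 947 CPM in untreated neutrophils. Both were at like levels in all 3 libraries. Hcar2, the receptor for hydroxybutyrate and niacin, was at 275 CPM (184 to 394) in the AN-GelMA library, 1917 CPM (1631 to 2238) in the GelMA library and 705 CPM (482 to 995) in the untreated library. By CPM it was highest in GelMA and lowest in AN-GelMA, with intervals that did not overlap. Its log2 ratios were -2.80 (-3.43 to -2.23) for AN-GelMA over GelMA, -1.36 (-2.14 to -0.59) for AN-GelMA over untreated and 1.44 (0.89 to 2.04) for GelMA over untreated. Thinned shares of cells with an Hcar2 UMI were 14.7% (8.47 to 23.1), 40.3% (28.1 to 53.55) and 28.1% (13.75 to 46.75) in AN-GelMA, GelMA and untreated neutrophils. By shares the untreated interval overlapped both others. Mxd1, which competes with MYC for its partner, was at 3228 CPM in AN-GelMA, 1498 CPM in GelMA and 3282 CPM in untreated neutrophils, and lowest in GelMA. Slpi was at 1704 CPM in AN-GelMA, 3379 CPM in GelMA and 1322 CPM in untreated neutrophils, and highest in GelMA. Acod1 was at 1297 CPM in AN-GelMA, 1713 CPM in GelMA and 2908 CPM in untreated neutrophils, and highest in the untreated library, where 1 cell held 31.1% of its UMIs.

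Pattern recognition receptors showed no common direction, but 2 members moved far. Cd14, the co-receptor for lipopolysaccharide, was at 559 CPM (425 to 720.5) in the AN-GelMA library, 2708 CPM (2366 to 3085) in the GelMA library and 595 CPM (392 to 865) in the untreated library. GelMA was highest and the AN-GelMA and untreated intervals overlapped, with log2 ratios of -2.28 (-2.72 to -1.86) for AN-GelMA over GelMA and 2.19 (1.61 to 2.82) for GelMA over untreated. Thinned shares of cells with a Cd14 UMI were 16.7% (10.0 to 25.3), 48.4% (35.5 to 61.4) and 34.4% (18.6 to 53.2) in the AN-GelMA, GelMA and untreated neutrophils, against at most 0.466% in keratinocytes. By these shares the untreated neutrophil interval overlapped both others. Pirb, an inhibitory receptor gene that binds class I major histocompatibility molecules, was at 805 CPM in AN-GelMA, 204 CPM in GelMA and 727 CPM in untreated neutrophils, lowest in GelMA. Nlrp3 was at 1032 CPM in AN-GelMA, 2013 CPM in GelMA and 1388 CPM in untreated neutrophils. Tyrobp, the adaptor of many activating receptors, was at 1714 CPM in AN-GelMA, 1162 CPM in GelMA and 1542 CPM in untreated neutrophils. In all, 2 of 14 members were higher and 3 lower in AN-GelMA over GelMA, beside 27.8% and 19.8% of all features. In AN-GelMA over untreated 1 of 14 was higher and 2 were lower, beside 28.1% and 18.0%. In GelMA over untreated 1 of 13 was higher and 4 were lower, beside 26.4% and 24.2%.

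Cytokine and chemokine RNA was lower in AN-GelMA than in either other library. The 22 genes of this list, which holds neither Il1b nor Cxcl2, summed to 4166 (3785 to 4574) CPM in AN-GelMA, 13011 (12249 to 13809) CPM in GelMA and 7556 (6778 to 8399.7) CPM in the untreated neutrophils. In AN-GelMA over GelMA, 1 of 12 compared members was higher and 7 were lower, with a median of -0.72, and in AN-GelMA over untreated 1 of 9 was higher and 6 were lower, with a median of -1.07. This is beside 19.8% and 18.0% of all features that were lower. In GelMA over untreated, 5 of 9 were higher and 2 lower, with a median of 0.67, but the sign of that median was lost without the 3 deepest cells of each library, at -0.026, an alternative chosen after seeing the data, and when no UMI of the excluded macrophage genes was allowed, at -0.22. One cell held 7.95%, 27.1% and 16.0% of the list's UMIs in AN-GelMA, GelMA and untreated. Without cells carrying RNA of other cells the medians were -1.60 for AN-GelMA over GelMA and -1.34 for AN-GelMA over untreated.

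The chemokines Ccl3 and Ccl4, which draw monocytes and lymphocytes, led this difference. Ccl3 was at 1041 CPM (856 to 1255) in the AN-GelMA library, 4445 CPM (4004 to 4921) in the GelMA library and 2732 CPM (2272 to 3257) in the untreated library. Ccl4 was at 483 CPM (359 to 635) in the AN-GelMA library, 4241 CPM (3811 to 4707) in the GelMA library and 1013 CPM (742 to 1352) in the untreated library. Both were lowest in AN-GelMA and highest in GelMA, with intervals that did not overlap. The log2 ratios of Ccl3 were -2.09 (-2.41 to -1.78) for AN-GelMA over GelMA, -1.39 (-1.77 to -1.01) for AN-GelMA over untreated and 0.70 (0.41 to 1.01) for GelMA over untreated, and those of Ccl4 -3.13, -1.07 and 2.06. One GelMA cell held 34.2% of the Ccl3 and 28.5% of the Ccl4 UMIs. Shares of cells rest less on that cell. Thinned to 500 UMIs, 20.6% (13.2 to 29.7), 46.8% (34.0 to 59.9) and 50.0% (31.9 to 68.1) of the AN-GelMA, GelMA and untreated neutrophils had a Ccl3 UMI, and 9.80% (4.80 to 17.3), 38.7% (26.6 to 51.9) and 34.4% (18.6 to 53.2) a Ccl4 UMI. Unthinned, the Ccl3 shares were 27.2%, 56.5% and 63.6% and the Ccl4 shares 15.5%, 48.4% and 45.5%. Thinned keratinocytes had a Ccl3 UMI in 0.577% in AN-GelMA, 0.493% in GelMA and 0.334% in untreated. By shares, AN-GelMA was lowest, while GelMA and the untreated library had overlapping intervals.

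Other cytokines differed in where they were high. Cxcl3, a CXCR2 ligand like Cxcl2, was at 227 CPM in AN-GelMA, 1258 CPM in GelMA and 154 CPM in untreated neutrophils, high in GelMA only among these 3 libraries, with a log2 ratio of -2.47 (-3.17 to -1.82) for AN-GelMA over GelMA and 3.03 (1.94 to 4.38) for GelMA over untreated. Il1a, the alarm form of interleukin 1, was at 218 CPM in AN-GelMA, 239.6 CPM in GelMA and 815 CPM in untreated neutrophils, high in the untreated library, with a log2 ratio of -1.90 (-2.72 to -1.11) for AN-GelMA over untreated and -1.77 (-2.63 to -0.94) for GelMA over untreated. Tnf was at 189 CPM in AN-GelMA, 443 CPM in GelMA and 595 CPM in untreated neutrophils, with a log2 ratio of -1.23 (-2.09 to -0.41) for AN-GelMA over GelMA and -1.65 (-2.56 to -0.76) for AN-GelMA over untreated. It was lowest in AN-GelMA. Osm, an interleukin 6 family cytokine gene, was at 303 CPM in AN-GelMA, 419 CPM in GelMA and 264 CPM in untreated neutrophils and past 1.5-fold only in GelMA over untreated, at 0.67 (-0.31 to 1.75), an interval that spans 0. Csf1, a macrophage growth factor gene, was at 303 CPM in AN-GelMA, 407 CPM in GelMA and 903 CPM in untreated neutrophils, but 1 cell held 46.3% of its untreated UMIs.

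Because several of these chemokines are known targets of NF-kB, promoters were searched for the letters of a kB site. The stretches shown hold the matches and run, 5′ to 3′ on the strand of the gene, from RefSeq promoter sequences on GRCm38.p6. The deposited counts were made on GRCm39, so no other coordinates are given. Capitals mark the letters GGG, any 2 bases and TTTCC or, on the other strand, GGAAA, any 2 bases and CCC. Cxcl2, a gene of the choice rule, lies at chr5:90903749-90903898, plus strand, with 2 matches, and Cxcl3 at chr5:90785951-90786100, plus strand, with 1.
Cxcl2: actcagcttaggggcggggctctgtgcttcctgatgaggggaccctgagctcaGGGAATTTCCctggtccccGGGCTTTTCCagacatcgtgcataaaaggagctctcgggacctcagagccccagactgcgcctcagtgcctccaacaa
Cxcl3: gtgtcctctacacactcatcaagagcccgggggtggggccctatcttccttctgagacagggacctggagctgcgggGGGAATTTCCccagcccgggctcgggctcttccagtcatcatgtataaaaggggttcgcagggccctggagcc
The letters occur in the 300-base promoters of Csf1, Cxcl3 and Il1rn, 3 of the 10 compared cytokine members with an entry, and of Nfkb2, Nfkbia, Rel and Tnfaip3, 4 of 13 NF-kB feedback members. Of all 32851 promoters, 535 (1.63%) hold them. None of these 10 cytokine promoters holds the interferon letters described below, so no overlap with them could occur. A match is a description of the letters and not evidence of binding.

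NF-kB feedback genes are switched on by the pathway and limit it. Their sum was 10887 (10267 to 11535) CPM in AN-GelMA, 15923 (15078 to 16802) CPM in GelMA and 15002 (13897 to 16173) CPM in untreated neutrophils. The AN-GelMA interval lay below the others, which overlapped. Member by member, these genes showed no common direction. In AN-GelMA over GelMA 3 of 16 were higher and 5 lower, beside 27.8% and 19.8% of all features. In AN-GelMA over untreated it was 3 of 14 and 4, beside 28.1% and 18.0%. In GelMA over untreated it was 1 of 13 and 2, beside 26.4% and 24.2%. Nfkbia, the gene of the inhibitor that holds NF-kB in the cytoplasm, was at 1988 CPM in AN-GelMA, 2983 CPM in GelMA and 4472 CPM in untreated neutrophils. It was lowest in AN-GelMA and highest in the untreated library, with a log2 ratio of -1.17 (-1.46 to -0.88) for AN-GelMA over untreated. Ier3, an early response gene, was at 1590.5 CPM in AN-GelMA, 3594 CPM in GelMA and 2908 CPM in untreated neutrophils, and Plaur, the urokinase receptor gene, at 1316 CPM in AN-GelMA, 2839.5 CPM in GelMA and 2115 CPM in untreated neutrophils. Both were lowest in AN-GelMA. Ptgs2, which makes prostaglandins, was at 1515 CPM in AN-GelMA, 1737 CPM in GelMA and 925 CPM in untreated neutrophils, and did not follow that order. Tnfaip2 was at 805 CPM in AN-GelMA, 179.7 CPM in GelMA and 529 CPM in untreated neutrophils and lowest in GelMA, with a log2 ratio of 2.16 (1.36 to 3.06) for AN-GelMA over GelMA.

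**Figure D3:**
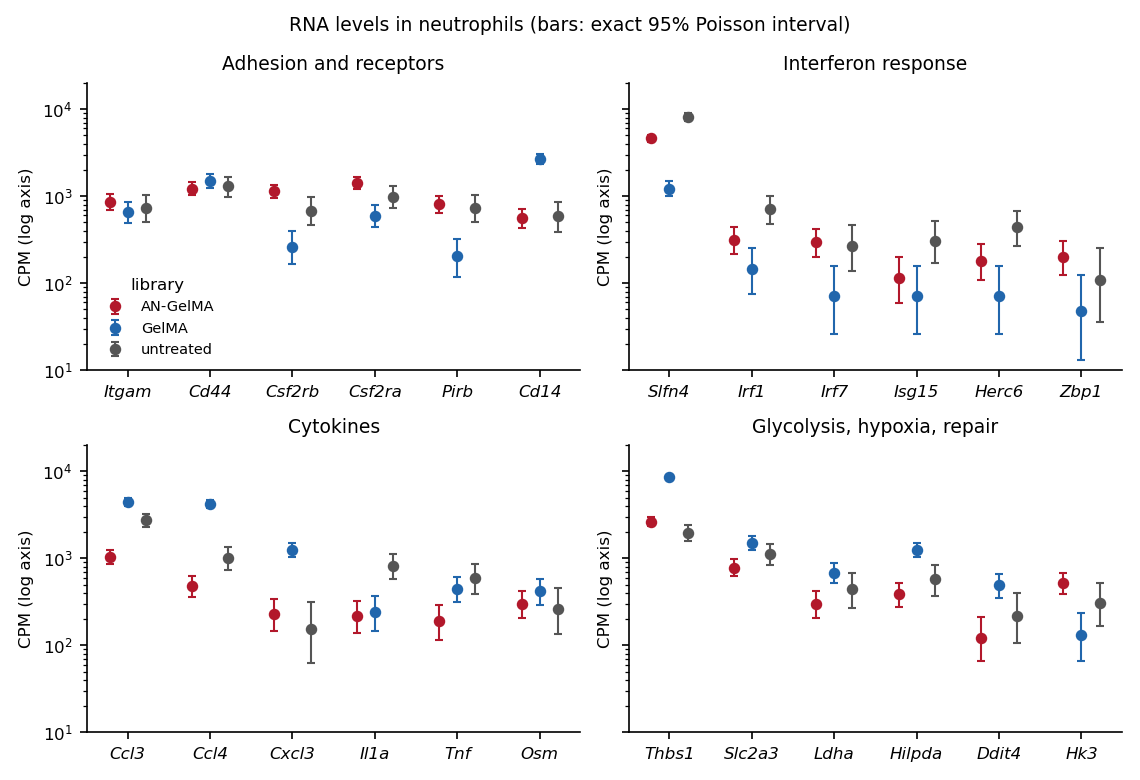
Level in CPM (log axis) of 24 genes in the neutrophils of each library, with exact 95% Poisson intervals, in 4 groups of genes. Csf2rb was high in AN-GelMA at 1136 CPM, Slfn4 low in GelMA at 1222 CPM, Ccl4 low in AN-GelMA at 483 CPM, and Thbs1 high in GelMA at 8542 CPM.

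Genes of the interferon response were lower in GelMA neutrophils than in those of both other libraries. These genes are switched on by interferons and many serve defence against viruses. The 30 listed genes summed to 7810.3 (7286 to 8362) CPM in AN-GelMA, 3043 (2680.4 to 3441) CPM in GelMA and 12976 (11949 to 14067) CPM in the untreated neutrophils. In AN-GelMA over GelMA, 8 of 11 compared members were higher and 1 lower, with a median of 1.32, beside 27.8% higher among all features. In GelMA over untreated, 2 of 8 were higher and 6 lower, with a median of -2.20, beside 24.2% lower. In AN-GelMA over untreated, 3 of 13 were higher and 8 lower, with a median of -0.77, beside 18.0% lower. The members compared were not the same in each. Without cells carrying RNA of other cells the medians were 2.04, -2.64 and -0.60 in these 3 comparisons.

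Slfn4, a Schlafen gene of mouse myeloid cells, gave much of the sum. It was at 4610.4 CPM (4210.0 to 5039) in the AN-GelMA library, 1222 CPM (996 to 1484) in the GelMA library and 8173 CPM (7362 to 9048) in the untreated library. The 3 intervals did not overlap, and the log2 ratios were 1.92 (1.60 to 2.24) for AN-GelMA over GelMA, -0.83 (-1.02 to -0.63) for AN-GelMA over untreated and -2.74 (-3.07 to -2.42) for GelMA over untreated. Thinned, 60.8% (50.6 to 70.3) of AN-GelMA, 37.1% (25.2 to 50.3) of GelMA and 75% (56.6 to 88.5) of untreated neutrophils had a UMI, as had 74.8%, 56.5% and 81.8% unthinned. Thinned keratinocytes had one in 2.78% in AN-GelMA, 0.439% in GelMA and 1.74% in untreated. Among neutrophils, the AN-GelMA and untreated intervals of the thinned Slfn4 share overlapped. Without Slfn4 the list summed to 3199.8 (2868 to 3559.8) CPM in AN-GelMA, 1821 (1543 to 2135) CPM in GelMA and 4802 (4186 to 5484) CPM in the untreated neutrophils, in the same order. One untreated cell held 22.4% of the list's UMIs there, against 4.36% in AN-GelMA and 8.66% in GelMA.

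Other members were sparse. Irf1, an interferon-induced transcription factor, was at 312 CPM in AN-GelMA, 144 CPM in GelMA and 705 CPM in untreated neutrophils, with a log2 ratio of 1.12 (0.13 to 2.21) for AN-GelMA over GelMA and -2.29 (-3.39 to -1.3) for GelMA over untreated. Irf7 was at 293 CPM in AN-GelMA, 71.9 CPM in GelMA and 264 CPM in untreated neutrophils, with a log2 ratio of 2.03 (0.75 to 3.58) for AN-GelMA over GelMA. Both regulators were lowest in GelMA. Rsad2, the gene of the antiviral protein viperin, rested on 12 UMIs in AN-GelMA, 2 in GelMA and 25 in untreated neutrophils, with a log2 ratio of -2.28 (-3.40 to -1.23) for AN-GelMA over untreated and -4.52 (-7.64 to -2.52) for GelMA over untreated. Zbp1, a sensor of Z-form nucleic acid, rested on 21 UMIs in AN-GelMA, 4 in GelMA and 5 in untreated neutrophils, and Isg15, a ubiquitin-like modifier gene, on 12 UMIs in AN-GelMA, 6 in GelMA and 14 in untreated neutrophils. The members that went the other way were Ifitm1, at 2 UMIs in AN-GelMA, 19 in GelMA and 1 in untreated neutrophils, and Ifitm2, at 28 UMIs in AN-GelMA, 30 in GelMA and 4 in untreated neutrophils. Both belong to the family of interferon-induced membrane proteins, and both were highest in GelMA. Oasl2, an oligoadenylate synthetase-like gene outside the list, was at 1079 CPM in AN-GelMA, 228 CPM in GelMA and 1212 CPM in untreated neutrophils, with a log2 ratio of 2.25 (1.54 to 3.03) for AN-GelMA over GelMA and -2.41 (-3.25 to -1.64) for GelMA over untreated.

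The interferon-stimulated response element, a sequence that IRF proteins bind, was searched as TTTC, any 2 bases and TTTC or, on the other strand, GAAA, any 2 bases and GAAA, in the same RefSeq promoters on GRCm38.p6. The 3 stretches shown belong to members that were lowest in GelMA, and capitals mark the match. They lie at chr12:26456453-26456602, minus strand, for Rsad2, at chr4:156200819-156200968, minus strand, for Isg15, and at chr5:120777660-120777809, minus strand, for Oas3, an oligoadenylate synthetase gene with 16 UMIs in AN-GelMA, 4 in GelMA and 7 in untreated neutrophils.
Rsad2: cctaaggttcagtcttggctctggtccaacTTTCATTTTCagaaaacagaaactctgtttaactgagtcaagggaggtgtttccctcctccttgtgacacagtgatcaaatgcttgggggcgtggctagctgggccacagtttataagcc
Isg15: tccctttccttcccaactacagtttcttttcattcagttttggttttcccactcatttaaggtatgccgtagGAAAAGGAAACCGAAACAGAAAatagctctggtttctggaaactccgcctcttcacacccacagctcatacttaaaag
Oas3: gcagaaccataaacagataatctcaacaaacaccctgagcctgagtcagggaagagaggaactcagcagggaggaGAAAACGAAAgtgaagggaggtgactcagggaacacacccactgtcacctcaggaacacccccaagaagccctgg
Isg15 holds 3 matches that overlap one another, and Rsad2 and Oas3 hold 1 each. The letters occur in 6 of the 12 compared interferon members that have an entry, Gbp2, Ifitm2, Isg15, Oas3, Rsad2 and Stat2, in 0 of 10 cytokine and 0 of 13 NF-kB members, and in 1131 of 32851 promoters (3.44%). No interferon promoter among the 12 holds the kB letters. Ifitm2 carries a match and was not lower in GelMA, so a match did not go with the direction in every member.

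Glycolysis and hypoxia genes were lower in AN-GelMA than in GelMA neutrophils. Neutrophils draw most of their energy from glycolysis. Of 28 listed genes, 21 were compared, and 15 were lower and 1 higher, with a median of -0.81, beside 19.8% lower among all features. The list summed to 8094 (7561 to 8656) CPM in AN-GelMA, 13131 (12365 to 13932) CPM in GelMA and 10222 (9313 to 11196) CPM in the untreated neutrophils. In AN-GelMA over untreated 3 of 18 were higher and 7 lower, with a median of -0.53, and in GelMA over untreated 8 of 20 were higher and 3 lower, with a median of 0.37. The sum of the untreated neutrophils thus lay between the others, and no 2 of the 3 intervals overlapped. Without cells carrying RNA of other cells the medians were -0.88, -0.54 and 0.77.

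Among glucose carriers, Slc2a3 was at 786 CPM in AN-GelMA, 1509.6 CPM in GelMA and 1124 CPM in untreated neutrophils, with a log2 ratio of -0.94 (-1.36 to -0.53) for AN-GelMA over GelMA, and Slc2a1 at 492 CPM in AN-GelMA, 755 CPM in GelMA and 308 CPM in untreated neutrophils, with a log2 ratio of -0.62 (-1.18 to -0.06). Ldha, which makes lactate, was at 303 CPM in AN-GelMA, 683 CPM in GelMA and 441 CPM in untreated neutrophils, with a log2 ratio of -1.17 (-1.84 to -0.52) for AN-GelMA over GelMA. Each was highest in GelMA. Slc16a3, a lactate exporter gene, was at 918 CPM in AN-GelMA, 1282 CPM in GelMA and 441 CPM in untreated neutrophils, with a log2 ratio of 1.06 (0.35 to 1.83) for AN-GelMA over untreated and 1.54 (0.84 to 2.31) for GelMA over untreated, so here the untreated neutrophils were lowest. Hilpda, a lipid droplet gene induced by hypoxia, was at 388 CPM in AN-GelMA, 1258 CPM in GelMA and 573 CPM in untreated neutrophils, with a log2 ratio of -1.70 (-2.25 to -1.16) for AN-GelMA over GelMA, and Ddit4, an inhibitor of mTORC1, at 123 CPM in AN-GelMA, 491 CPM in GelMA and 220.3 CPM in untreated neutrophils, with a log2 ratio of -2.0 (-3.02 to -1.07). Both were highest in GelMA. Pfkfb3, which sets the pace of glycolysis, was at 539.6 CPM in AN-GelMA, 563 CPM in GelMA and 551 CPM in untreated neutrophils, a like level in all 3. Vegfa was at 312 CPM in AN-GelMA, 276 CPM in GelMA and 573 CPM in untreated neutrophils and did not follow the list. Hk3, the hexokinase of myeloid cells, was the 1 member that was higher in AN-GelMA than in GelMA, at 521 CPM in AN-GelMA, 132 CPM in GelMA and 308 CPM in untreated neutrophils, with a log2 ratio of 1.98 (1.03 to 3.06).

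The list of vessel and repair factors summed to 4364 (3975 to 4781.5) CPM in AN-GelMA, 10567 (9881 to 11288) CPM in GelMA and 4031.5 (3468.5 to 4659.8) CPM in untreated neutrophils. GelMA was highest, and the AN-GelMA and untreated intervals overlapped. The sums came from 461 UMIs in AN-GelMA, 882 in GelMA and 183 in untreated neutrophils. Thbs1 alone gave 713 of the GelMA and 90 of the untreated UMIs, so the high GelMA sum was mostly that gene. Thbs1, the gene of thrombospondin 1, a matrix protein that binds dying cells to phagocytes and restrains vessel growth, was at 2632 CPM (2332 to 2960.1) in the AN-GelMA library, 8542 CPM (7927 to 9193) in the GelMA library and 1983 CPM (1594 to 2437) in the untreated library. GelMA was highest, with log2 ratios of -1.70 (-1.90 to -1.50) for AN-GelMA over GelMA, 0.41 (0.06 to 0.77) for AN-GelMA over untreated and 2.11 (1.79 to 2.44) for GelMA over untreated. Thinned, 35.3% (26.1 to 45.4), 69.3% (56.4 to 80.4) and 43.8% (26.4 to 62.3) of the AN-GelMA, GelMA and untreated neutrophils had a UMI. Thinned keratinocytes had one in 4.87% in AN-GelMA, 6.22% in GelMA and 3.81% in untreated. Among neutrophils, the untreated interval of the thinned Thbs1 share overlapped both others. Srgn, outside the list, was at 3086 CPM (2760.3 to 3440.1) in the AN-GelMA library, 10352 CPM (9673 to 11065) in the GelMA library and 2886 CPM (2413 to 3424) in the untreated library, and also highest in GelMA. Spp1, the osteopontin gene, also lies outside the list. It was at 435 CPM in AN-GelMA, 3666 CPM in GelMA and 705 CPM in untreated neutrophils. Its log2 ratio was -3.07 (-3.55 to -2.62) for AN-GelMA over GelMA, and 1 GelMA cell held 29.7% of its UMIs. Tgfb1 was at 75.7 CPM in AN-GelMA, 276 CPM in GelMA and 66.1 CPM in untreated neutrophils, from 8 UMIs in AN-GelMA, 23 in GelMA and 3 in untreated neutrophils. In the list of 13 repair factors, 0 of 7 were higher and 2 lower in AN-GelMA over GelMA, beside 27.8% and 19.8% of all features. In AN-GelMA over untreated 1 of 6 was higher and 2 were lower, beside 28.1% and 18.0%. In GelMA over untreated 4 of 6 were higher and 1 lower, beside 26.4% and 24.2%.

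Immediate early genes, which answer to signals and to handling of tissue within minutes, varied gene by gene. Their sum was 14343 (13629 to 15083) CPM in AN-GelMA, 18151 (17249 to 19089) CPM in GelMA and 19122 (17871 to 20437) CPM in untreated neutrophils. The AN-GelMA interval lay below the others, which overlapped. In AN-GelMA over GelMA 2 of 19 were higher and 7 lower, beside 27.8% and 19.8% of all features. In AN-GelMA over untreated it was 1 and 8, beside 28.1% and 18.0%. In GelMA over untreated it was 5 and 6, beside 26.4% and 24.2%. The medians were -0.10, -0.47 and -0.16. Fos was at 1127 CPM in AN-GelMA, 1102 CPM in GelMA and 441 CPM in untreated neutrophils, lowest in the untreated library, with a log2 ratio of 1.35 (0.66 to 2.12) for AN-GelMA over untreated. Junb was at 1231 CPM in AN-GelMA, 3774 CPM in GelMA and 1674 CPM in untreated neutrophils, highest in GelMA, with a log2 ratio of -1.62 (-1.92 to -1.32) for AN-GelMA over GelMA. Atf3 was at 417 CPM in AN-GelMA, 371 CPM in GelMA and 1256 CPM in untreated neutrophils, highest in the untreated library, with a log2 ratio of -1.59 (-2.19 to -1.0) for AN-GelMA over untreated. No common order held over these 3. Egr1 was at 218 CPM in AN-GelMA, 779 CPM in GelMA and 330.4 CPM in untreated neutrophils, Nr4a1 at 161 CPM in AN-GelMA, 515 CPM in GelMA and 595 CPM in untreated neutrophils and Dusp5 at 388 CPM in AN-GelMA, 1150.2 CPM in GelMA and 1146 CPM in untreated neutrophils, each lowest in AN-GelMA.

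Myeloid transcription factors gave 3 of 9 higher and 3 lower in AN-GelMA over GelMA, beside 27.8% and 19.8% of all features. In AN-GelMA over untreated it was 2 of 7 and 2, beside 28.1% and 18.0%. In GelMA over untreated it was 2 of 7 and 1, beside 26.4% and 24.2%. Cebpb, which drives emergency production of neutrophils, was at 2414 CPM in AN-GelMA, 4505 CPM in GelMA and 3635 CPM in untreated neutrophils, lowest in AN-GelMA. Cebpd was at 454 CPM in AN-GelMA, 228 CPM in GelMA and 66.1 CPM in untreated neutrophils, from 48 UMIs in AN-GelMA, 19 in GelMA and 3 in untreated neutrophils, with a log2 ratio of 2.78 (1.15 to 5.11) for AN-GelMA over untreated. Bhlhe40, a transcription factor of activated leukocytes, was at 123 CPM in AN-GelMA, 443 CPM in GelMA and 639 CPM in untreated neutrophils, lowest in AN-GelMA, with a log2 ratio of -1.85 (-2.88 to -0.90) over GelMA and -2.38 (-3.44 to -1.39) over untreated. Members of this list thus went both ways.

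RNA of genes that govern death and engulfment was of interest because the gel carried apoptotic neutrophils. Of the apoptosis and survival genes, 1 of 9 was higher and 1 lower in AN-GelMA over GelMA, beside 27.8% and 19.8% of all features. In AN-GelMA over untreated 2 of 10 were higher and 3 lower, beside 28.1% and 18.0%. In GelMA over untreated 1 of 8 was higher and 3 were lower, beside 26.4% and 24.2%. Few were thus past 1.5-fold only in AN-GelMA over GelMA. Mcl1, the survival protein that neutrophils depend on, was at 2774 CPM in AN-GelMA, 2983 CPM in GelMA and 2313 CPM in untreated neutrophils, a like level in all 3. Pmaip1, the gene of the death promoter Noxa, was at 133 CPM in AN-GelMA, 95.8 CPM in GelMA and 441 CPM in untreated neutrophils, highest in the untreated library, with a log2 ratio of -1.73 (-2.83 to -0.68) for AN-GelMA over untreated. Among 16 engulfment genes, 3 of 7 were higher and 2 lower in AN-GelMA over GelMA, beside 27.8% and 19.8% of all features. In AN-GelMA over untreated it was 0 of 7 and 2, beside 28.1% and 18.0%. In GelMA over untreated it was 2 of 6 and 3, beside 26.4% and 24.2%. Cd47, the signal that tells phagocytes not to engulf, was at 303 CPM in AN-GelMA, 228 CPM in GelMA and 242 CPM in untreated neutrophils, with intervals that overlapped. Cd300a, a receptor gene for lipids of dying cells, rested on 19 UMIs in AN-GelMA, 2 in GelMA and 6 in untreated neutrophils, with a log2 ratio of 2.91 (0.86 to 6.05) for AN-GelMA over GelMA. These levels do not separate loaded from host cells.

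**Figure D4:**
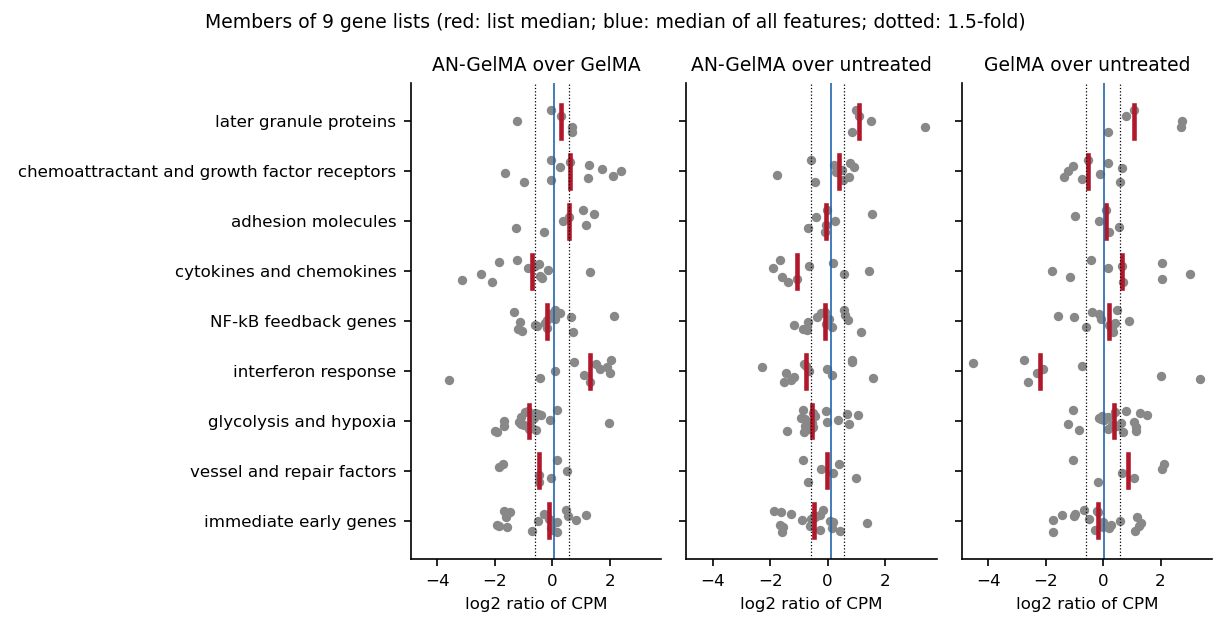
Log2 ratios of the compared members of 9 gene lists in the 3 comparisons, each point 1 gene, with the median of the list and of all features and dotted lines at 1.5-fold. In AN-GelMA over GelMA the interferon median stood at 1.32, the cytokine median at -0.72 and the glycolysis median at -0.81.

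Ranked by the interval bound nearest 0 among features at least 2 times the level of other cells, the 10 features most clearly higher in AN-GelMA than in GelMA were Slfn4, Sirpb1a, Oasl2, Nlrp12, Trim30d, Csf2rb, Apobec3, Cd244a, Zfp106 and Tnfaip2. Sirpb1a, a signal regulatory protein gene, rested on 23 UMIs in AN-GelMA, 1 in GelMA and 1 in untreated neutrophils, with a log2 ratio of 4.18 (1.56 to 9.55) over GelMA. Nlrp12, a regulator of inflammation of the NLR family, was at 312 CPM in AN-GelMA, 35.9 CPM in GelMA and 110.2 CPM in untreated neutrophils, with a log2 ratio of 3.12 (1.45 to 5.47). Cd244a, a receptor gene of the SLAM family, was at 492 CPM in AN-GelMA, 83.9 CPM in GelMA and 132 CPM in untreated neutrophils, with a log2 ratio of 2.55 (1.41 to 3.94) over GelMA and 1.90 (0.68 to 3.41) over untreated. Apobec3, which restricts retroviruses, was at 256 CPM in AN-GelMA, 24.0 CPM in GelMA and 176 CPM in untreated neutrophils. These genes had 7 or fewer GelMA UMIs except Slfn4, Oasl2, Csf2rb and Tnfaip2. The 10 most clearly lower were Lyg2, Ccl4, Spp1, Hcar2, Arg1, Cd14, Cxcl3, Ccl3, Sertad1 and Stfa2. One GelMA cell held 98.6% of the Lyg2, 82.4% of the Stfa2 and 64.0% of the Arg1 UMIs, so these 3 describe single cells.

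In AN-GelMA over untreated, the features most clearly higher included Hp, Creb5, Zyx, Cebpd, Krt75, Atg3, Alox5, Sirpb1a and Cd244a. Zyx, a gene of the actin-bound protein zyxin, was at 691 CPM in AN-GelMA, 276 CPM in GelMA and 132 CPM in untreated neutrophils, with a log2 ratio of 2.39 (1.20 to 3.88) over untreated and 1.33 (0.63 to 2.07) over GelMA. Alox5, which starts leukotriene synthesis, rested on 24 UMIs in AN-GelMA, 9 in GelMA and 1 in untreated neutrophils, with a log2 ratio of 3.37 (0.75 to 8.73). Krt75, a keratin gene of epithelial cells, had 50.0% of its UMIs in 1 AN-GelMA cell. The 10 most clearly lower were Slc34a2, Gsdmc, Prnd, Bhlhe40, Rsad2, Il1a, Gadd45g, Ccl3, Atf3 and Phlda1. One untreated cell held 100% of the Slc34a2, 97.1% of the Gsdmc and 100% of the Prnd UMIs. Gadd45g, a stress response gene, was at 170.4 CPM in AN-GelMA, 239.6 CPM in GelMA and 661 CPM in untreated neutrophils, with a log2 ratio of -1.96 (-2.88 to -1.06), and Phlda1 at 94.7 CPM in AN-GelMA, 395 CPM in GelMA and 419 CPM in untreated neutrophils, with a log2 ratio of -2.14 (-3.41 to -0.97).

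In GelMA over untreated, the 10 most clearly higher were Lyg2, Cxcl3, Spp1, Thbs1, Arg1, Klk5, Ccl4, Cd14, Srgn and Sertad1. One GelMA cell held 100% of the UMIs of Klk5, a kallikrein gene of the epidermis. Sertad1 rested on 34 GelMA and 2 untreated UMIs, with a log2 ratio of 3.21 (1.25 to 6.31), and 5 UMIs in AN-GelMA. The 10 most clearly lower were Slc34a2, Rsad2, Slfn4, Prnd, Cd274, Oasl2, Gsdmc, Casp4, Irf1 and Herc6. Cd274, the gene of the checkpoint ligand PD-L1, was at 275 CPM in AN-GelMA, 119.8 CPM in GelMA and 793 CPM in untreated neutrophils, with a log2 ratio of -2.73 (-3.90 to -1.69), but 1 cell held 52.8% of its untreated UMIs. Casp4, the caspase that senses lipopolysaccharide inside cells, was at 303 CPM in AN-GelMA, 95.8 CPM in GelMA and 551 CPM in untreated neutrophils, with a log2 ratio of -2.52 (-3.88 to -1.33), and Herc6, a ubiquitin ligase gene, at 179.9 CPM in AN-GelMA, 71.9 CPM in GelMA and 441 CPM in untreated neutrophils, with a log2 ratio of -2.62 (-4.22 to -1.25).

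The neutrophils of each library also differed among themselves. The cytokine list took a median of 0.256%, 0.676% and 0.755% of a cell's UMIs in AN-GelMA, GelMA and untreated. It was at 0 in 26 of 103, 8 of 62 and 5 of 33 cells, and at most 3.68%, 8.80% and 3.07%. Single cells of GelMA thus reached the highest share. The interferon list took 0.577%, 0.281% and 0.898%, with highest cells at 6.30%, 2.17% and 8.76%, and the glycolysis list 0.766%, 1.34% and 1.08%. The medians per cell kept AN-GelMA lowest for cytokines and glycolysis and GelMA lowest for interferon genes. For cytokines the untreated median was the highest, while the GelMA sum exceeded the other sums. S100a8 and S100a9 of the rule took 0.599%, 1.07% and 0.687%.

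**Figure D5:**
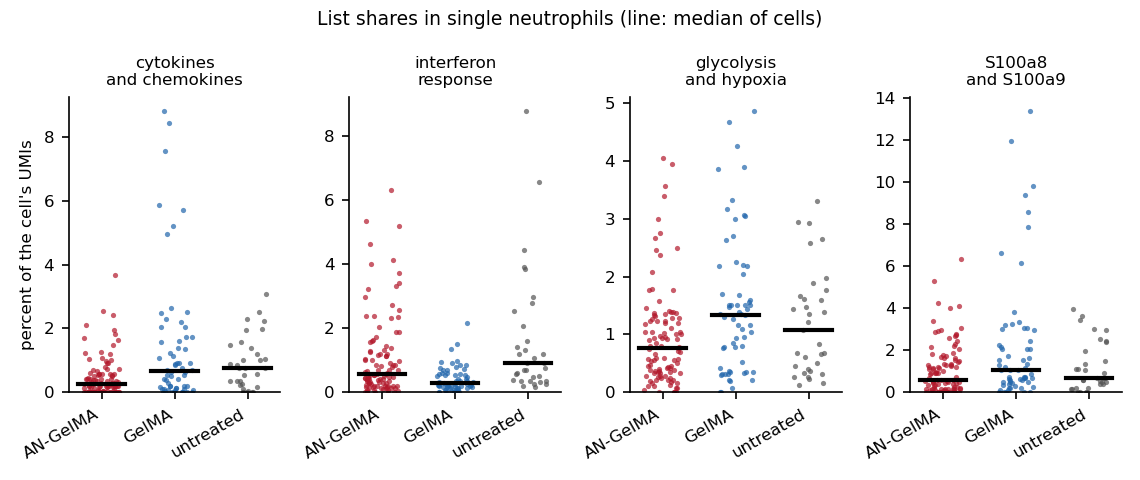
Percent of each neutrophil's UMIs that fell on the cytokine, interferon and glycolysis lists and on S100a8 and S100a9, each point 1 cell, with the median of each library as a line. The interferon median was lowest in GelMA at 0.281% and the cytokine median lowest in AN-GelMA at 0.256%, and cells of each library spread widely around them.

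Cells with and without chemokine RNA were set side by side, a division chosen after its values were seen. A Ccl3 or Ccl4 UMI was found in 34 of 103 AN-GelMA, 39 of 62 GelMA and 22 of 33 untreated neutrophils. Their median depth was 746, 816 and 1067 UMIs, and that of the cells without 737, 776 and 764 UMIs, in AN-GelMA, GelMA and untreated. Csf3r was at 1710, 556 and 1399 CPM in cells with chemokine RNA of the AN-GelMA, GelMA and untreated libraries, and at 4407, 1734 and 3319 CPM in those without. The receptor for granulocyte colony-stimulating factor was thus lower in the chemokine cells of every library. Cxcl2 was at 19412, 26857 and 27140 CPM in cells with chemokine RNA and at 3461, 4840 and 1302 CPM in those without. Thbs1 was at 3919, 11546 and 2897 CPM with and at 1908, 2492 and 195 CPM without, and Cd14 at 921, 3729 and 766 CPM with and at 355, 650.1 and 260.4 CPM without. These 3 were higher in the chemokine cells of every library. Slfn4 was at 3998, 1165 and 9857 CPM with and at 4955, 1336 and 4882 CPM without. The rule used Csf3r and Cxcl2, and depth differed between the cells with and without in the untreated library, so these levels are a description.

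Macrophage-like cells of the same libraries, the most like cells at hand, differed from neutrophils in some list medians and not in others. The values are over members with at least 20 UMIs in both cell types. For AN-GelMA over GelMA, the glycolysis median was -0.81 in neutrophils and 1.16 in macrophage-like cells, and 17 of 21 members had opposite signs, beside 867 of 2338 features in all. For GelMA over untreated it was 0.31 in neutrophils and -1.04 in macrophage-like cells, with opposite signs in 14 of 19, beside 513 of 1346. In AN-GelMA over untreated the medians were -0.53 and -0.053, with opposite signs in 4 of 18, beside 789 of 1767. Most glycolysis genes thus had opposite signs in neutrophils and macrophage-like cells in both comparisons with GelMA, and not in the comparison without it. Hilpda showed it at log2 ratios of -1.70 in neutrophils and 1.70 in macrophage-like cells for AN-GelMA over GelMA, Slc2a1 at -0.62 and 1.36, and Ldha at -1.17 and 1.12. The cytokine median for AN-GelMA over GelMA was -0.72 in neutrophils and 0.022 in macrophage-like cells. The interferon median for AN-GelMA over GelMA was 1.42 in neutrophils and 0.47 in macrophage-like cells, with 1 of 10 members opposite. For AN-GelMA over untreated it was -0.77 and 0.19, with 9 of 13 opposite, beside 789 of 1767 features. For GelMA over untreated it was -2.29 and -0.21, with 3 of 7 opposite, beside 513 of 1346. The interferon medians thus had opposite signs in AN-GelMA over untreated only. For AN-GelMA over GelMA, the receptor median was 0.93 and 0.53, with 4 of 10 opposite. In that comparison the adhesion median was 0.57 and 0.89, with 1 of 7, and the engulfment median 0.41 and 0.55, with 2 of 7. For GelMA over untreated the receptor median was -0.62 in neutrophils and -0.42 in macrophage-like cells, with 1 of 8 opposite. For AN-GelMA over untreated the receptor median was 0.30 and 0.071, with 4 of 9 opposite. The receptor medians thus had the same sign in both cell types. The opposite members, 4 of 10 in AN-GelMA over GelMA and 4 of 9 in AN-GelMA over untreated, were near the shares of all features. Slfn4 was at 1596, 276 and 751 CPM in macrophage-like cells of AN-GelMA, GelMA and untreated, also lowest in GelMA. Cd14 was at 46.2, 23.1 and 48.1 CPM and Thbs1 at 633, 231 and 300.4 CPM, neither highest in GelMA, the library where neutrophils had most of both. These differences between cell types were not tested, and treatment, mouse and tissue sample cannot be told apart in any of them.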

How the data were processed

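Libraries of wound skin cells were analysed, 3 in all and 1 for each group, as the labels give it. Per the file headers and the submitters' processing notes, the authors made the deposited matrices of UMI counts per gene and barcode with Cell Ranger 10.0.0 on the builds GRCm39 and mm39; how cells were called was not stated there. Each table has 19070 features, with 5 symbols shared by 2 features. No probe was listed for Bcl2a1a, Clec7a, Ear1, Ear2, Ly6c2 and Stfa2l1. The AN-GelMA, GelMA and untreated tables hold 9648, 11449 and 6073 barcodes and 14156692, 21613482 and 8945496 UMIs, and 36, 147 and 34 barcodes fell under 250 genes or over 10% mitochondrial UMIs.

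From these counts, UMIs of the chosen cells were summed per library and divided by their total (CPM). The members and gene lists were chosen with earlier results of these data known. Ratios carry exact conditional binomial intervals, levels exact Poisson and shares exact Clopper-Pearson intervals, all at 95%. A count of 0 was set to 3 UMIs, which makes the ratio a bound. No test, p-value or count of differing genes as a result is possible with 1 library per group. Genes named in each comparison were the 10 highest and 10 lowest past 1.5-fold, by the interval bound nearest 0, with at least 20 UMIs over both libraries, outside the rule, and at least 2 times the level of all other cells; leading genes were the 20 with the highest ratio to other cells in their lowest library. A few genes that met these rules are not reported here. Keratinocytes were cells with at least 10 UMIs of keratinocyte genes. Doublets were treated in an alternative that left out the 5% of cells with the highest Scrublet score. The comparison script was tested on simulated counts. Python 3.11.15, numpy 2.4.6, scipy 1.17.1, pandas 2.3.3, scanpy 1.11.5, matplotlib 3.10.9 and edgeR 4.0.16 (TMM factors) were used.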

Additional observations from a re-analysis of the deposited data

How the results depend on the processing

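The AN-GelMA share of 1.07% became 0.801% with 3 UMIs of the receptor set, 0.749% without Hdc and Trem1, 0.811% without cells carrying RNA of other cells, 0.718% with thinned cells and 4.39% among immune cells. The GelMA share of 0.549% became 0.265% without Hdc and Trem1, 0.345% without cells carrying RNA of other cells and 7.11% among immune cells. The untreated share of 0.546% became 0.298%, 0.348% and 3.17% under the same settings and 0.282% with thinned cells. Leaving out cells with RNA of other cells, and the 3 deepest cells of each library, were alternatives chosen after seeing the data.

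Features past 1.5-fold numbered 1124 in AN-GelMA over GelMA, 824 in AN-GelMA over untreated and 695 in GelMA over untreated. They became 298, 183 and 165 with at least 50 UMIs, 8919, 9063 and 8685 with no minimum, 381, 320 and 279 among features above other cells, 513, 402 and 205 without cells carrying RNA of other cells, and 400.0, 297 and 171 with cells thinned to 500 UMIs, settings that change the number of features compared. GelMA over untreated also had 410 without Hdc and Trem1 and 428 without the 3 deepest cells. The interferon median of AN-GelMA over GelMA was 2.04 without cells carrying RNA of other cells.

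Of 595 alternatives to list medians, 93 had the other sign, mostly where the reported median was under 1.5-fold, and 32 lay 1.5-fold or more from the reported value. Reported medians past 1.5-fold turned sign in 5, all in GelMA over untreated. The cytokine median became -0.22 with no UMI of the excluded genes and -0.026 without the 3 deepest cells. The lipid mediator median became -0.23 with the mean of per-cell shares and -0.20 without the 3 deepest cells, and the vessel and repair median -0.73 with no minimum count. Of the cytokine, interferon and glycolysis medians, 8 of 113 alternatives lay 1.5-fold or more away. Besides those given above, they were the cytokine median at -1.60 in AN-GelMA over GelMA without cells carrying RNA of other cells, -0.31 in AN-GelMA over untreated with no minimum count and 0.012 in GelMA over untreated with thinned cells, and the interferon median of GelMA over untreated at -1.15 with no minimum count and -1.35 with the mean of per-cell shares. Over all alternatives the AN-GelMA over GelMA medians ran from 0.88 to 2.04 for interferon, from -1.60 to -0.43 for cytokines and from -0.88 to -0.65 for glycolysis. Of 569 alternatives for named genes, 114 lay 1.5-fold or more from the reported ratio, among them Alox5 and Atg3 in AN-GelMA over untreated, each as low as 1.07, and 6 reversed. A further 31 gave no value, both libraries holding 3 UMIs or fewer. The reversed ones were Creb5 in AN-GelMA over untreated at -0.66 without cells carrying RNA of other cells, Gsdmc at 0.83 in AN-GelMA over untreated and 2.18 in GelMA over untreated with no UMI of the excluded genes, Krt75 in AN-GelMA over untreated at -1.26 and Arg1 in GelMA over untreated at -0.54 with thinned cells, and Klk5 in GelMA over untreated at -0.061 with the mean of per-cell shares. The cause of these changes was not tested.

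TMM scaling moved every log2 ratio by -0.066 in AN-GelMA over GelMA, 0.16 in AN-GelMA over untreated and 0.23 in GelMA over untreated. No paired analysis was possible because the groups hold a single library each, with no replicate number. The untreated neutrophils limit the depth most: a gene absent there may be at up to 66.1 CPM, the level of 3 UMIs, against 35.9 CPM in GelMA and 28.4 CPM in AN-GelMA.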

Other observations

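Lists with few or no compared members are given here as values. The 12 heat shock genes summed to 407 (295 to 548) CPM in AN-GelMA, 731 (559 to 939) CPM in GelMA and 573 (374 to 839) CPM in the untreated neutrophils, from 43, 61 and 26 UMIs. The AN-GelMA value was the lowest, and its interval overlapped that of the untreated library. In all other cells the list stood at 438 CPM in AN-GelMA, 698 CPM in GelMA and 411 CPM in the untreated library. Whether these levels have to do with the word heat in the AN-GelMA file names was not tested. The NADPH oxidase makes superoxide in the respiratory burst. Of its subunits, 2 of 5 were higher and 0 lower in AN-GelMA over GelMA, beside 27.8% and 19.8% of all features. In AN-GelMA over untreated 1 of 5 was higher and 0 lower, beside 28.1% and 18.0%. In GelMA over untreated 1 of 4 was higher and 2 were lower, beside 26.4% and 24.2%. Ncf4, a cytosolic subunit, was at 341 CPM in AN-GelMA, 95.8 CPM in GelMA and 286 CPM in untreated neutrophils, with a log2 ratio of 1.83 (0.70 to 3.15) for AN-GelMA over GelMA. Lipid mediator genes gave 3 of 6 higher and 1 lower, 3 of 5 and 0, and 3 of 5 and 2 in the same order. The shares of all features beside them are those given for the NADPH oxidase. Pla2g7, which breaks down platelet activating factor, was at 577 CPM in AN-GelMA, 239.6 CPM in GelMA and 485 CPM in untreated neutrophils, with a log2 ratio of 1.27 (0.52 to 2.08) for AN-GelMA over GelMA.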
